A study of Mus musculus with 4 samples.

Results

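The genes described here encode the proteasome: the subunits of its 20S core and 19S regulatory particle, the inducible subunits of the immunoproteasome, the activators PA28 and PA200, the chaperones that assemble the particle and the inhibitor PI31. They were found by symbol, as every gene for which a probe set carries 1 symbol only and that symbol starts with Psma, Psmb, Psmc, Psmd, Psme, Psmf or Psmg, and each was represented by its brightest probe set. This gave 49 of the 18193 genes measured, read by 103 probe sets. Of the 49, 47 encode parts of the proteasome or its assembly factors and 2 carry the prefix for another reason: Psmc3ip, a cofactor of meiotic recombination, and Psme3ip1, a protein that binds the product of Psme3. The brightest probe set averaged under 100 intensity units for 2 members, Psma8, an alpha subunit of male germ cells, and Psmb11, a beta subunit of the thymus, and they were kept.

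The proteasome is the protease that degrades most proteins marked with ubiquitin, and in the heart it removes damaged and misfolded proteins of the contractile apparatus. Its 20S core is a barrel of alpha and beta rings with the active sites inside, and the 19S particle recognises ubiquitin chains, unfolds the substrate with a ring of ATPases and feeds it into the core. Interferon induces alternative catalytic subunits, which replace the constitutive ones to form the immunoproteasome, and other caps bind the core in place of the 19S particle: PA28 alpha and beta, PA28 gamma, which is nuclear and is encoded by Psme3, and PA200, which is encoded by Psme4.

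Total RNA, from hearts by its labels, was hybridised to 4 Affymetrix mouse arrays. The 2 arrays labelled Rhau KO came from adult C57BL/6J mice of the genotype CAAG-ERT2-Cre;Rhau F/F, in which a tamoxifen-activated Cre recombinase can delete the floxed Rhau gene, and the 2 labelled Control came from adult C57BL/6J mice of the genotype Rhau F/F, which carry the floxed alleles without Cre. All mice had 5 tamoxifen injections at the age of 2 months, and RNA was prepared 2 months after these, so that tamoxifen was common to all arrays while Cre and the deletion cannot be told apart. The sources used here do not say in which cells the inducible Cre acts, and RNA was taken from the heart as a whole, where fewer cells of a type and less RNA per cell cannot be told apart. The values are linear MAS 5.0 intensities in arbitrary units, and differences are given on the log2 scale, Rhau KO minus Control, with the standard error (SE) of the limma fit. Whether the replicates of a group were separate animals is not stated in the sources used here, and the p-values therefore cover no more than the variation among these 4 samples.

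Labels and RNA readings disagreed in 2 respects that touch every comparison. Dhx36, which encodes the helicase RHAU, was not lower in the arrays labelled Rhau KO. Its intensity was 568 and 537 there and 327 and 194 in the others (1.13 in log2, SE 0.36, limma unadjusted p = 0.0292, adjusted p = 0.873). Dhx36 thus passed the study's thresholds, a change of 2-fold or more and an unadjusted p under 0.05, on the higher side, as did 1.65% of all genes. Its difference was 1.51 without Control replicate 1 and 0.75 without Control replicate 2. These are RNA readings of the brightest probe set, and protein was not measured on the arrays. By Western blot, the paper reports effective loss of RHAU protein in hearts of this Cre line after tamoxifen. Why the RNA reading was not lower was not tested. The names Rhau KO and Control therefore stand below for the array label only. Control replicate 1 lacked much of the heart signal. All 10 ventricular cardiomyocyte markers were lowest on it, 4 of them under 100, and they summed to 87510 there and to 400582 to 418496 on the other 3 arrays, while 10 fast skeletal muscle markers summed to 434182 there and to 625 to 1338 elsewhere. Control replicate 2 stood apart in another way: all 11 heat shock genes listed were highest on it, Hspa1b at 41456 against 1089 to 3992. Results are therefore given with and without these arrays, and where a Control array is left out, the lone Control is assumed to vary like the other arrays.

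Several transcription factors are known to act at the promoters of proteasome genes, and the windows below show letters that such factors bind, for the genes on which the results turn: Psme3 and Psme4, the constitutive catalytic genes Psmb5 and Psmb6, and the immunoproteasome gene Psmb10. Each is a 30-base stretch of the gene's own strand, 5′ to 3′, taken from RefSeq on GRCm38.p6, with the motif in capitals. CACGTG is the E-box, CGGAAG the core bound by ETS factors, and TGACNNNGC the core of the antioxidant response element, which is bound by NRF1 and NRF2, factors known to drive proteasome genes.
Psme3, chr11:101316157-101316186, plus strand, E-box: ggctgcgcagggCACGTGctcatcctcccc
Psme3, chr11:101316095-101316124, plus strand, ETS core: gggcacaaggccCGGAAGctccgacagccc
Psme4, chr11:30771711-30771740, plus strand, ETS core: gtggccccgcccCGGAAGtgacttgaggcc
Psmb5, chr14:54618023-54618052, minus strand, antioxidant response element core: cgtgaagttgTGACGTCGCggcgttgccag
Psmb6, chr11:70525327-70525356, plus strand, antioxidant response element core: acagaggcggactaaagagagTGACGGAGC
Psmb10, chr8:105938491-105938520, minus strand, E-box: gttcccaacgccCACGTGgtggcacgccca

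The promoter windows ran from 250 bases before to 50 bases after the annotated start, and 41 of the 49 members had a window. A gene was counted once, as a match if any of its windows held the motif. Genes with several windows thus had more chances to match. On either strand, the ETS core was found for 24 of these 41 genes (58.5%). The share was 18.8% of all 27025 genes with a window and 36.7% of the 7451 that were also in the brighter part of the genes measured. Among the 24 were Psme3, Psme4, the 20S core genes Psma4, Psma6, Psmb3 and Psmb4 and the ATPase genes Psmc1, Psmc2, Psmc4 and Psmc6. The CCAAT box, CCAAT, was found for 16 members (39.0%, against 41.1% of all and 42.3% of the brighter genes). The E-box was found for 5 (12.2%, against 8.09% and 12.4%), which were Psma4, Psmb10, Psmd9, Psme3 and Psme3ip1. The antioxidant response element core was found for 6 members (14.6%, against 14.0% and 17.3%), which were Psmb5, Psmb6, Psmc6, Psmd9, Psmd12 and Psme4. The core of the interferon-stimulated response element, GAAA followed by GAAA after 2 free bases, was found for 5 members (12.2%, against 3.99% and 3.46%). These were Psmb3, Psmd4, Psmd9, Psme1 and Psmg4, and the core was not found for Psmb9 and Psmb10. The heat shock element, searched as GAA, TTC and GAA with 2 free bases between each, was found for none of the 41 and for 0.662% of all genes with a window. No motif printed overlapped another of the 6 searched, and a match describes letters only.

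Psme3, the gene of PA28 gamma, was the member that differed most between the labels. Its brightest probe set read 758 and 886 in Rhau KO and 2284 and 4699.95 in Control. Both Rhau KO arrays lay below both Control arrays, and Control replicate 2 read 2.06-fold above Control replicate 1. The mean intensity was 822 ± 90.7 (SD, n = 2) against 3492 ± 1709 (SD, n = 2), which is -1.999 in log2 (SE 0.40), with an unadjusted p = 0.00563 and a limma adjusted p = 0.873. Psme3 was the only 1 of the 49 members past the study's thresholds, a change of 2-fold or more and an unadjusted p under 0.05, which 3.29% of all genes passed and 1.64% passed on the lower side. The study lists Psme3 among candidates picked in part on these arrays, so its place past the thresholds is not independent evidence of a change. The study's RNA-seq, on hearts of younger mice from another Rhau knockout line, lists Psme3 as higher in the knockout. That direction is opposite to the one by label on these arrays. No gene on the arrays passed an adjusted p under 0.05 in the fit of all 4 (limma, 0 of 18193, with 785 at an unadjusted p under 0.05, or 4.31%, and 0 by the methods' t-test, with 941), so Psme3 did not pass it either. By the methods' t-test Psme3 had an unadjusted p = 0.0643 and did not pass the study's thresholds.

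Further probe sets of Psme3 split by brightness. The next in brightness read 129 and 147 against 305 and 367 and lay lower in both Rhau KO arrays, by 1.28 on the log2 scale. The third, a dim one, read 31.6 and 72.5 against 5.15 and 14.5, which is the opposite order at readings under 100, the range of 51.7% to 54.0% of the probe sets of an array. With the mean of all 3 probe sets, the log2 difference was -0.27 (limma, unadjusted p = 0.575). With the mean of the probe sets that averaged at least 100, an alternative chosen after seeing the data, it was -1.64 (unadjusted p = 0.00431, adjusted p = 0.874).

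The lower reading of Psme3 did not rest on either Control array. Without Control replicate 1, the log2 difference was -2.52 and passed the threshold over all genes (limma, adjusted p = 0.0110), as 0.819% of genes did in that fit. Without Control replicate 2 it was -1.48 (limma, adjusted p = 0.00249), in a fit where 22.5% of genes passed. Leaving out either Rhau KO array gave -1.89 and -2.11.

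**Figure D1:**
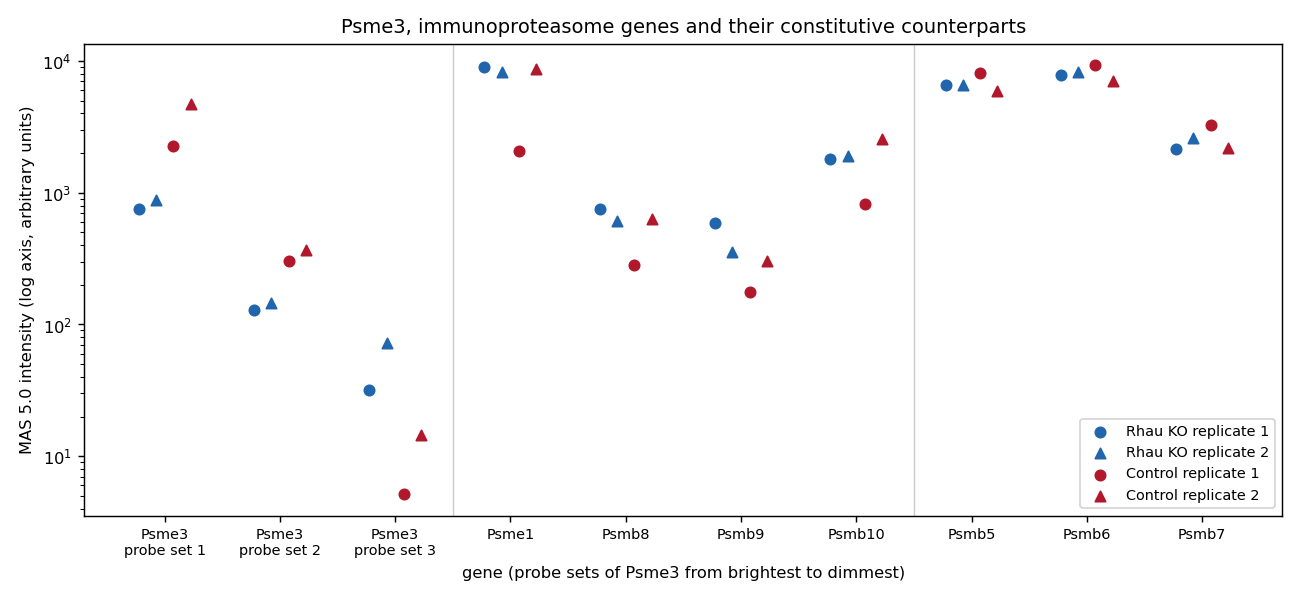
MAS 5.0 intensity (log axis, arbitrary units) of Psme3 on its 3 probe sets, of Psme1 and the catalytic immunoproteasome genes, and of the constitutive counterparts Psmb5, Psmb6 and Psmb7, one symbol per array, Rhau KO in blue and Control in red, circles for replicate 1 and triangles for replicate 2. The brightest probe set of Psme3 sits at 758 and 886 in the Rhau KO arrays and at 2284 and 4699.95 in the Control arrays, while Psme1 is lowest in Control replicate 1 at 2071.

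The 20S core, to which PA28 gamma binds, was close to level across the arrays. All 14 core genes read at 2136 or more on every array, and the ratio of the highest to the lowest array had a median of 1.28 and reached at most 1.65, so that 0 of 14 spanned more than 2-fold, against 31.3% of the brighter part of all genes. Of the 14, 6 had a higher and 8 a lower mean in Rhau KO, where 43.1% of all genes had a lower one, and the median log2 difference was -0.03 (range -0.36 to 0.30), beside 0.09 over all genes. The sign of this median depended on the scaling, at -0.16 with median centring, which gave 4 higher and 10 lower, and at 0.014 with quantile normalization, which gave 7 and 7. In the alpha ring, which gates the entry to the chamber, Psma3 read 9857 and 9768 against 16119 and 9865, a difference in log2 of -0.36 (SE 0.30), and the height of the Control mean came from Control replicate 1 alone. Psma6 read 8778 and 9615 against 14054 and 9311 (-0.32), again with Control replicate 1 highest, while Psma1 read 6925 and 7093 against 6324 and 5789.6 (0.21) and was higher in both Rhau KO arrays. Psma7 read 7526 and 7131 against 6554 and 6591 (0.16), and Psma2 read 6857 and 9679 against 6529 and 7519 (0.22), with overlapping groups. Psma4 (-0.06) and Psma5 (-0.04) differed least in this ring.

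The beta ring carries the active sites, in Psmb6 (caspase-like), Psmb7 (trypsin-like) and Psmb5 (chymotrypsin-like). None of these constitutive catalytic genes separated the labels. Psmb5 read 6556 and 6586 against 8045 and 5929 (log2 difference -0.07), Psmb6 7851 and 8198 against 9265 and 7112 (-0.02), and Psmb7 2136 and 2611 against 3252 and 2180.4 (-0.17). In each the Rhau KO arrays lay between the higher Control replicate 1 and the lower Control replicate 2, save that Psmb7 was lowest in Rhau KO replicate 1. Psmb2, a structural subunit, had the highest difference of the core: it read 5284 and 5369 against 4243 and 4393, a difference in log2 of 0.30 (SE 0.18, unadjusted p = 0.166, limma adjusted p = 0.873), and the groups did not overlap. Psmb1 (-0.05), Psmb3 (0.05) and Psmb4 (0.05) were near level. Non-overlapping groups were seen for 4 of the 14 core genes, 3 higher (Psma1, Psma7 and Psmb2) and 1 lower (Psma3), where 36.3% of all genes did not overlap, 21.7% with both Rhau KO arrays above and 14.6% with both below.

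Relative to the core of the same array, Psme3 stayed lower. The log2 intensity of Psme3 minus the median of the 14 core genes was -3.34 and -3.10 in Rhau KO and -1.83 and -0.59 in Control. The difference of -2.01 has the smallest p that an exact permutation test of 2 arrays against 2 can give (two-sided, p = 0.333), so this design cannot pass 0.05. It was -2.63 without Control replicate 1 and -1.39 without Control replicate 2. Averaging the probe sets of each gene, it shrank to -0.48 (exact permutation test, p = 0.667).

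The 19S particle was measured by 17 genes, 6 ATPases and 11 other subunits, and nearly all of them read highest on the same Control array. Of the 17, 16 were highest on Control replicate 1, where 29.9% of all genes and 33.4% of the brighter ones were highest, and 11 were lowest on Control replicate 2, where 24.6% of all genes were. The median of the 17 in Control replicate 1 lay 0.41 log2 units above the mean of the other 3 arrays. By label, 4 had a higher and 13 a lower mean in Rhau KO, with a median log2 difference of -0.14, a range from -0.38 to 0.29, and 16 were lower with median centring, while 0 of 17 spanned more than 2-fold.

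Among the ATPases, which unfold the substrate, Psmc5 had the highest difference. It read 5006 and 5022 against 5772 and 2919, a difference in log2 of 0.29 (SE 0.37), and Rhau KO lay between the Control arrays. Psmc5 was at 0.78 without Control replicate 1 and at -0.20 without Control replicate 2, so its direction followed which Control was used. Psmc2 read 9229 and 9454 against 13453 and 7954 (-0.15) and showed the same order of arrays. Psmc1 (-0.07), Psmc3 (0.06), Psmc4 (-0.08) and Psmc6 (-0.11) also had overlapping groups.

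Of the non-ATPase subunits, Psmd7, a scaffold partner of the deubiquitinase subunit, had the lowest difference. It read 2878 and 3242 against 5287 and 2972, a difference in log2 of -0.38 (SE 0.34), and 0.04 without Control replicate 1. Psmd4, a ubiquitin receptor, read 3463 and 3889 against 6242 and 3261 (-0.30), so that the Control arrays lay on either side of the Rhau KO arrays. Psmd1, a large scaffold subunit, read 5664 and 5419 against 7829 and 5918 (-0.30, SE 0.23), and Psmd8 read 4219.5 and 4359 against 5842 and 4658 (-0.28, SE 0.21). Both lay lower in both Rhau KO arrays, as did Psmd3 (-0.11) and Psmd13 (-0.21), and the smallest unadjusted p of the 4 was 0.248 (limma). These were 4 of the 17 genes of the 19S particle, and 0 of the 17 lay higher in both Rhau KO arrays. Over all genes, 14.6% lay lower in both, 21.7% higher in both and 36.3% in either direction. Each of the 4 was highest on Control replicate 1. Without it they were at -0.10 (Psmd1), -0.12 (Psmd8), -0.06 (Psmd3) and -0.11 (Psmd13). Psmd6 gave opposite answers on 2 probe sets: the brighter read 6933 and 7126 against 11995 and 6583, and the other 5215 and 5992 against 10847 and 378, the last a reading far below the rest. Psmd14, the deubiquitinase itself, was near level (0.03), as was Psmd2 (0.05), while Psmd11 and Psmd12 were both at -0.14.

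Without Control replicate 1, the array low in heart markers, the medians turned. Then 12 of the 14 core genes and 12 of the 17 genes of the 19S particle were higher, with medians of 0.13 and 0.09. Over all genes, 9604 of 18193 were then higher, with a median of 0.03. Without Control replicate 2 the medians were -0.12 and -0.36, beside 0.11 over all genes, and all 17 of the 19S genes were lower. Over the 31 genes of both parts, 25 were highest on Control replicate 1 and 0 were highest on Control replicate 2, where 23.8% of all genes were. Whether the muscle type of Control replicate 1 accounts for its higher readings was not tested.

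**Figure D2:**
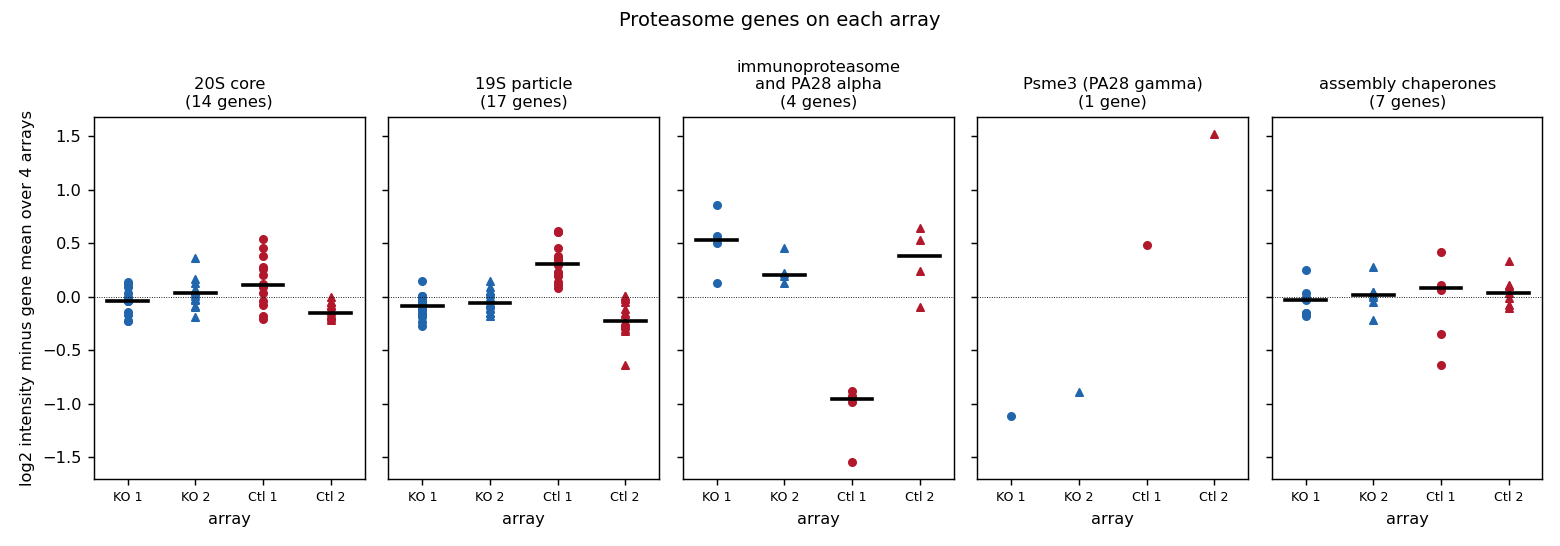
Log2 intensity of each gene minus its mean over the 4 arrays, by array (KO for Rhau KO, Ctl for Control, with the replicate number), for the 20S core, the 19S particle, the immunoproteasome with PA28 alpha, Psme3 and the assembly chaperones; each symbol is a gene and black bars are medians. The 19S genes sit highest in Control replicate 1, the 4 immunoproteasome genes sit lowest there, and Psme3 is low in both Rhau KO arrays.

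The immunoproteasome genes spanned 2.68- to 4.31-fold over the arrays, more than any gene of the core, and all 4 measured had a higher mean log2 intensity in Rhau KO. These were Psmb8, Psmb9 and Psmb10, the interferon-inducible replacements of Psmb5, Psmb6 and Psmb7, and Psme1, the alpha subunit of PA28. The beta subunit, Psme2, has no probe set with a single symbol here and was not analysed here. The median log2 difference of the 4 was 0.83 (range 0.34 to 1.02), and 0 of the 4 passed the study's thresholds, which 1.65% of genes passed on the higher side.

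Psme1 read 8935 and 8282 against 2071 and 8741, a difference in log2 of 1.02 (SE 0.71, limma adjusted p = 0.873), so that Control replicate 2 lay between the Rhau KO arrays. Psmb8 read 755 and 611 against 282 and 630 (0.69, SE 0.46), and Psmb10 read 1790.5 and 1906 against 827 and 2560.2 (0.34, SE 0.58). In these 3 genes the groups overlapped. Psmb9 read 590 and 355 against 177 and 305, a difference in log2 of 0.98 (SE 0.44, unadjusted p = 0.0843), and was the only 1 of the 4 in which both Rhau KO arrays lay above both Control arrays.

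All 4 genes were lowest on Control replicate 1, where 40% of all genes and 46.9% of the brighter ones were lowest, at a median of 1.27 log2 units below the mean of the other 3 arrays. Without that array the log2 differences were -0.02 for Psme1, 0.11 for Psmb8, 0.59 for Psmb9 and -0.47 for Psmb10, a median of 0.04, and relative to the core median the difference went from 0.50 with all arrays to -0.30. Leaving out Control replicate 2 left the array rich in skeletal muscle RNA as the lone Control. All 4 differences then rose, to 2.05 for Psme1, 1.16 for Psmb10, 1.27 for Psmb8 and 1.37 for Psmb9, with a median of 1.32.

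Genes of other cell types moved with the same array. Of 12 leukocyte markers, 10 were lowest on Control replicate 1, where 40% of all genes were lowest. The 12 markers summed to 6521 there and to 14204 to 14827 on the other 3 arrays. The T and B cell markers Cd3e and Cd79a read under 30 on all 4. The T cell marker Cd3g, also dim and named after its values were seen, read 40.6 and 46.4 against 5.24 and 6.19, with an unadjusted p = 0.00857 and a limma adjusted p = 0.873. All 5 endothelial markers were lowest on it as well, with a sum of 3518 against 9320 to 9994. The fibroblast markers summed to 45220 on it and to 33428 to 39431 elsewhere. The part of these cells in the immunoproteasome readings was not tested.

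**Figure D3:**
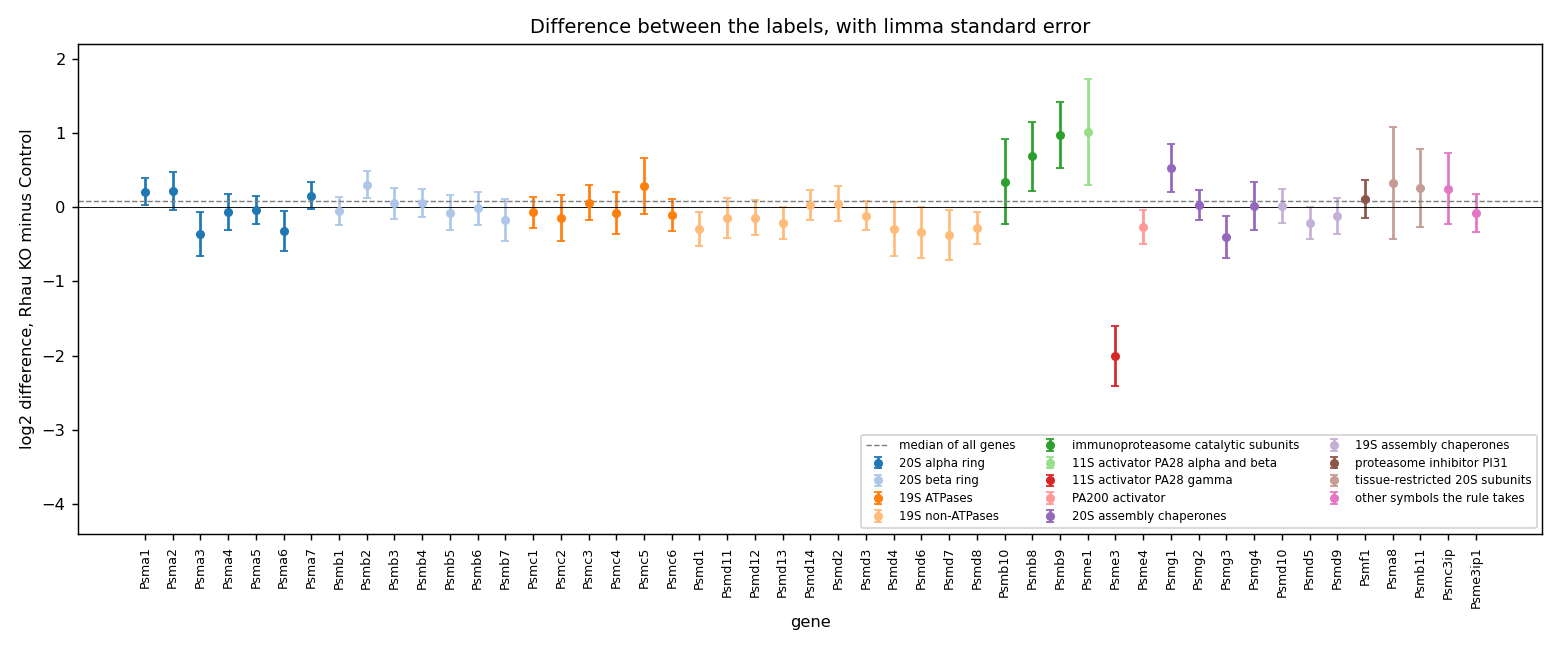
Log2 difference of each of the 49 members, Rhau KO minus Control, with the limma standard error as bars and colours for the class of the protein; the dashed line is the median of all genes. Psme3 sits at -1.999, the 31 genes of the core and the 19S particle between -0.38 and 0.30, and the 4 immunoproteasome genes between 0.34 and 1.02.

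The gene of PA200 had a smaller difference than that of PA28 gamma. Psme4, whose product caps the core in the nucleus and promotes the degradation of acetylated histones, read 10978 and 11169 against 15309.6 and 11611, a difference in log2 of -0.27 (SE 0.22, unadjusted p = 0.291). Both Rhau KO arrays lay below both Control arrays, by a narrow margin against Control replicate 2. Its next 2 probe sets gave -0.28 and -0.32, and 3 dimmer ones were higher in Rhau KO, which turned the mean over all probe sets to 0.49.

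Assembly chaperones showed no common direction, with 4 of 7 higher, 3 lower and a median log2 difference of 0.01, and with median centring 1 was higher and 6 lower. Psmg1, which with Psmg2 builds the alpha ring, read 1589 and 1625 against 859 and 1445 (0.53, SE 0.32), above both Control arrays, and its difference was 0.15 without Control replicate 1. Psmg2, its partner, was level (0.03). Psmg3 read 397 and 386 against 603 and 446 (-0.41, SE 0.29), below both Control arrays, and its partner Psmg4 read 694 and 704 against 544 and 877 (0.02). The chaperones of the 19S base were Psmd5, at 812 and 873 against 977 and 970 (-0.21), Psmd9 (-0.11) and Psmd10 (0.01). Psmf1, the inhibitor PI31, read 537 and 659 against 583 and 520 (0.11), with overlapping groups.

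The remaining members were tissue-restricted subunits and the pair of other proteins. Psma8 read 150 and 56.4 against 47.1 and 114, and Psmb11 41.9 and 39.5 against 38.3 and 30.4, with all but 2 of these readings under 100. Psmc3ip was at 169 and 230 against 233 and 118 (0.25), and Psme3ip1 at 1212 and 1091 against 1398 and 1052 (-0.08, SE 0.25), beside -1.999 for Psme3. In all, 22 members were higher and 27 lower (13 and 36 with median centring), with a median of -0.05, and 15 of the 49 had groups that did not overlap, 6 above and 9 below, where the shares over all genes were 36.3% in either direction, 21.7% above and 14.6% below. The highest array was over 2-fold above the lowest for 6 of the 49, namely Psme3, Psme1, Psmb8, Psmb9, Psmb10 and the dim Psma8.

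The wider pathway was described through genes that work with the proteasome. Of 13 partners (shuttle factors, a ligase and deubiquitinases bound to it, the maturation factor and an import factor), 3 had a higher and 10 a lower mean in Rhau KO, with a median log2 difference of -0.14. Over all genes, 43.1% had a lower mean. Control replicate 1 was the highest array for 8 of the 13, and for 29.9% of all genes. Without it, 7 were higher and 6 lower, with a median of 0.07. The ubiquilins carry ubiquitinated proteins to the 19S particle, and Ubqln1 and Ubqln4 had the smallest p of the list. Ubqln1 read 3738 and 3292 against 6072 and 6718, a difference in log2 of -0.86 (SE 0.20, unadjusted p = 0.00917, limma adjusted p = 0.873). Ubqln4 read 1035 and 1114 against 2141 and 1803, a difference in log2 of -0.87 (SE 0.22, unadjusted p = 0.0127). In both, the groups did not overlap and the Control arrays lay close together. Their relative Ubqln2, named after its values were seen, read 2571 and 2949 against 3157 and 2905 (-0.14), with overlapping groups. Without Control replicate 1, Ubqln1 was at -0.94 and Ubqln4 at -0.75, and without Control replicate 2 they were at -0.79 and -0.996. Akirin2, which imports proteasomes into the nucleus, read 4765 and 4702 against 4006 and 3568 (0.32), and the proteasome-bound ligase Ube3c read 688 and 608 against 762 and 801 (-0.27).

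Regulators of proteasome transcription split, with 4 of 11 higher and 7 lower, where 43.1% of all genes were lower. Without Control replicate 1, 7 were higher and 4 lower, with a median of 0.04. Nfe2l2, which encodes NRF2, read 4902 and 4944 against 3261 and 3598, a difference in log2 of 0.52 (SE 0.19, unadjusted p = 0.0444, limma adjusted p = 0.873), and the groups did not overlap. Nfe2l1, which encodes NRF1, the factor that raises proteasome genes when proteasome activity is short, read 4859.5 and 5026 against 6784 and 5535 (-0.31, SE 0.21), with both Rhau KO arrays lower. Of the subunits of the CCAAT-binding factor, Nfyc read 2054 and 1765 against 2263 and 2398 (-0.29), and Nfyb read 360 and 342 against 1407 and 340, high on Control replicate 1 alone.

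Of 11 listed genes of ubiquitin and its handling, 5 were measured. All 5 were lower by label, with a median of -0.11, where 43.1% of all genes were lower, and none had an unadjusted p under 0.05. All 5 were also highest on Control replicate 1, where 29.9% of all genes were highest. Without that array, 3 were lower and 2 higher, with a median of -0.03. Nploc4, a cofactor of the segregase p97, read 674 and 611 against 1131 and 711 (-0.48), and the genes of p97 itself and other cofactors were closer to level: Vcp at -0.12, Ufd1 at -0.11 and Nsfl1c at -0.05.

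Among the 11 heat shock genes, whose products hand misfolded proteins to refolding or to the proteasome, 5 were higher and 6 lower by label. All 11 were highest on Control replicate 2, where 23.8% of all genes were highest. Control replicate 1 was the lowest array for 9 of them, and for 40% of all genes. The median of the list in Control replicate 2 lay 1.05 log2 units above the Rhau KO mean. Hspa1a read 1141 and 582 against 631 and 18079, and Hsph1 2534 and 2199.6 against 2273 and 11412. Hspd1, the mitochondrial chaperonin, read 15645 and 14503 against 8502 and 15958. Of the 31 genes of the core and the 19S particle, 18 were lowest on Control replicate 2, while Psme3, at 4699.95, was highest on it.

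Antigen processing and interferon genes, which are induced with the immunoproteasome, were lowest on the same array as Psmb8, Psmb9, Psmb10 and Psme1. Of 14 measured, 13 had a higher mean in Rhau KO, where 43.1% of all genes had a lower one. All 14 were lowest on Control replicate 1, where 40% of all genes and 46.9% of the brighter ones were lowest. All 10 ventricular cardiomyocyte markers and all 5 endothelial markers were lowest there too. Nlrc5, the activator of class I genes, read 269 and 215 against 89.8 and 163, a difference in log2 of 0.99 (SE 0.44, unadjusted p = 0.0806). H2-D1, a class I heavy chain, read 8265 and 7732 against 3089 and 7023 (0.78), the peptide transporter gene Tap2 629 and 587 against 237 and 581 (0.71), and the interferon-induced GTPase gene Gbp2 801 and 844 against 336 and 746 (0.72). In 5 of the 14 both Rhau KO arrays lay above both Control arrays, as in 21.7% of all genes. The median log2 difference of the 14 was 0.44, and -0.11 once Control replicate 1 was left out, with Nlrc5 at 0.56, H2-D1 at 0.19, Gbp2 at 0.14 and Tap2 at 0.06.

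**Figure D4:**
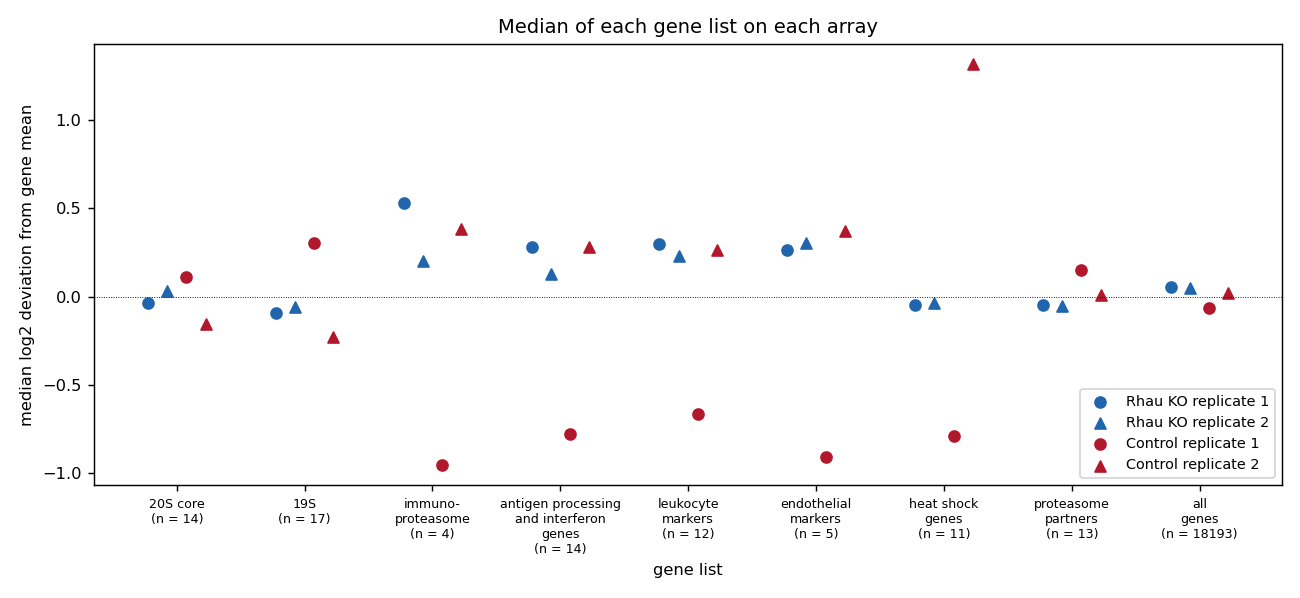
Median log2 deviation from each gene's mean over the 4 arrays, for each gene list and array, Rhau KO in blue and Control in red, circles for replicate 1 and triangles for replicate 2. Control replicate 1 is lowest for the immunoproteasome, antigen processing, leukocyte and endothelial lists and highest for the 19S particle, while Control replicate 2 is highest for the heat shock genes.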

How the data were processed

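The authors amplified and biotin-labelled total RNA for Affymetrix mouse arrays and normalized the scans with the MAS 5.0 algorithm. The deposited values are the linear intensities the authors obtained, with 51.7% to 54.0% of probe sets under 100 per array; no detection call was used here, and the number of arrays limits the precision. Probe sets numbered 45101, of which 64 controls were left out; of all probe sets, 34958 carried 1 symbol, 932 several and 9211 none. Log2 intensities of 18193 genes were fitted in R 4.3.3 by limma 3.58.1 (linear model, then eBayes with a trend), 2 arrays against 2, adjusted by Benjamini-Hochberg at 0.05; the paper names no array test. The code was tested on simulated data. Of 112 listed genes of related pathways and cell types, 96 were measured. Named are all members and, per related list, up to 4 with the smallest p. Members and lists were chosen with earlier results of these data known. Alternatives were no trend, quantile normalization, median centring, a pseudocount of 32, the brighter genes alone, means over probe sets, the methods' t-test, a replicate block and leaving out each array. Plots were drawn with matplotlib 3.10.9, and tables read with pandas 2.3.3 and numpy 2.4.6 under Python 3.11.15.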

Additional observations from a re-analysis of the deposited data

How the results depend on the processing

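Psme3 was lower in the arrays labelled Rhau KO under every alternative run, but only by -0.27 with the mean of all probe sets. When 1 array was left out it ranged from -2.52 to -1.48. The values without Control replicate 1 (-2.52) and without Control replicate 2 (-1.48) come from fits with a lone Control. The count of members past both thresholds, 1 with all arrays, was 0 with the mean of all probe sets, 0 by the methods' t-test, and 1 to 5 when 1 array was left out, where 5 came without Control replicate 2 (Psme3 and the 4 immunoproteasome genes). The number of members lower in the arrays labelled Rhau KO, 27 of 49, was 36 with median centring, which moved the median of all genes from 0.09 to -0.04, and 16 to 36 when 1 array was left out, 16 without Control replicate 1. Leaving out 1 array gave medians of -0.12 to 0.13 for the 20S core, -0.36 to 0.095 for the 19S particle and 0.042 to 1.32 for the immunoproteasome genes. The deviations of same-numbered arrays from their group means had a correlation of 0.00603 over 18193 genes. This value cannot show whether the samples were paired, because Control replicate 1 differed from Control replicate 2 in its muscle markers. With the replicate block Psme3 stayed at -1.999 (limma, adjusted p = 0.969), with 1 member past both thresholds. The causes were not tested.

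Over the other 48 members and 20 named genes of the related lists, 68 in all, 784 of 880 values kept their direction and side of the threshold, 65 changed sign and 31 passed the adjusted threshold where all arrays did not. The mean of all probe sets turned Psma1 (-0.18), Psma6 (0.30), Psmd13 (0.46), Psmd2 (-0.10), Psmd6 (0.56) and Psme4 (0.49); the mean of probe sets of at least 100, chosen after seeing the data, turned Psma1 (-0.0092), Psmd13 (0.073), Psmd6 (0.56), Psme4 (0.0074) and Psmf1 (-0.013). Median centring turned Psmb3 (-0.080), Psmb4 (-0.077), Psmc3 (-0.069), Psmd10 (-0.12), Psmd14 (-0.10), Psmd2 (-0.084), Psmf1 (-0.019), Psmg2 (-0.10) and Psmg4 (-0.11), and quantile normalization Psmb6 (0.033), Psmd10 (-0.037) and Psmg4 (-0.039). Leaving out 1 array turned Hspa1a (-4.47 to 0.37), Hspa1b (-4.03 to 1.22), Hspd1 (-0.083 to 0.83), Hsph1 (-2.27 to 0.055), Nfyb (-2.004 to 0.044), Psma2 (-0.031 to 0.47), Psma4 (-0.31 to 0.19), Psma5 (-0.10 to 0.031), Psma8 (-0.38 to 1.03), Psmb1 (-0.13 to 0.019), Psmb10 (-0.47 to 1.16), Psmb3 (-0.092 to 0.19), Psmb4 (-0.010 to 0.12), Psmb5 (-0.29 to 0.15), Psmb6 (-0.21 to 0.17), Psmb7 (-0.46 to 0.11), Psmc1 (-0.20 to 0.055), Psmc2 (-0.53 to 0.23), Psmc3 (-0.16 to 0.29), Psmc3ip (-0.24 to 0.74), Psmc4 (-0.38 to 0.23), Psmc5 (-0.20 to 0.78), Psmc6 (-0.28 to 0.063), Psmd10 (-0.061 to 0.084), Psmd11 (-0.45 to 0.16), Psmd12 (-0.36 to 0.081), Psmd14 (-0.12 to 0.18), Psmd2 (-0.18 to 0.27), Psmd4 (-0.77 to 0.17), Psmd6 (-0.77 to 0.095), Psmd7 (-0.79 to 0.040), Psme1 (-0.023 to 2.05), Psme3ip1 (-0.28 to 0.13), Psmf1 (-0.037 to 0.26), Psmg2 (-0.067 to 0.12), Psmg4 (-0.33 to 0.36) and Vcp (-0.28 to 0.048).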
